A study of Homo sapiens with 4 samples.

Results

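Cholesterol synthesis and uptake genes were followed in PANC-1 cells, a human pancreatic ductal adenocarcinoma line, with and without a CFL1 knockout. The group holds 27 genes listed by symbol, of 59885 genes in the authors' deposited table: enzymes that build cholesterol, proteins that switch this synthesis on and off, and genes of sterol uptake and transport. All 27 were found, and all 27 carried an adjusted p-value, so no member was lost to a filter on low values. The samples were 2 libraries of CFL1 knockout cells and 2 libraries of control cells, all from total RNA of PANC-1. CFL1 is the gene of cofilin, which cuts actin filaments. The labels name no drug, no time after the knockout, no guide RNA, no control construct, and no clone or pool. They do not say that libraries came from separate cultures, and p-values then reflect only the spread among the libraries at hand, possibly a technical one. The comparison asks which transcripts of the sterol pathway differ in level between CFL1 knockout and control cells.

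Cells make cholesterol from acetyl-CoA through mevalonate, isoprenoid diphosphates, squalene and lanosterol, and they take up more from lipoproteins. When sterol in the membrane of the endoplasmic reticulum runs low, SCAP escorts the SREBP transcription factors to the Golgi, where proteases free their active domain to switch on nearly every gene of the pathway. INSIG proteins hold SCAP back when sterol is plentiful, and excess cholesterol is exported by transporters such as ABCA1. The same mevalonate pathway supplies the prenyl groups that anchor small GTPases to membranes, which has made it a subject of study in pancreatic cancer.

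The table holds 1 result per gene and no column per library, but its base means are printed to so many digits that the whole reads behind them could be recovered for 30643 of 30662 genes below a base mean of 10000, and for all 27 members. Recovered reads below that base mean summed to between 12337387 and 14623639 per library. The letters A and B name the recovered libraries of a group and are not the label numbers. CFL1 (ENSG00000172757.12_3_CFL1) had normalized counts, reads divided by the size factor of the library, of 2285 and 2487 in the knockouts, against 6276 in control A and 13761 in control B. The authors' deposited table put the log2 fold change of CFL1 at -2.07 (SE 0.454, adjusted p = 0.00168, DESeq2 Wald test). The other 3 libraries resembled each other more than control B. Across 16441 genes, Pearson's r of log2(normalized count + 1) with control B was 0.685 for knockout A, 0.688 for knockout B and 0.694 for control A, whereas the knockouts had r of 0.978 and 0.979 with control A and 0.986 with each other. Genes are not independent replicates, so these r values are descriptions. Of 8 epithelial and PANC-1 markers, 0 had an adjusted p under 0.05 by DESeq2 in the authors' deposited table. An unadjusted p under 0.05 was reached by 5 of the 8, all 5 with negative log2 fold changes, beside 12.6% of all tested genes. KRT19, a duct keratin, had 0 and 0 normalized counts in the knockouts, against 1.82 in control A and 2481 in control B. KRT7, another duct keratin, had 4000.4 and 3683 in the knockouts, against 3551 in control A and 108 in control B. KRT8, KRT18 and VIM were abundant, with base means of 14817, 12889.8 and 20850.4 in the authors' deposited table. Its log2 fold changes for them were -1.41, -0.98 and -1.81 (adjusted p = 0.117, 0.296 and 0.351, DESeq2 Wald test). Reads per library were not recovered for these 3, so they could not be set against each control. CDH1 had 3.54 and 2.16 in the knockouts, against 12.7 in control A and 164 in control B. EPCAM had 7.08 and 16.2 in the knockouts, against 6.36 in control A and 42.5 in control B. CDH2 had 483 and 505 in the knockouts, against 586 in control A and 155 in control B. Of the leukocyte and endothelial markers, 3 were tested: CD68, CD14 and VWF. Their sums were 29.2 and 32.4 in the knockouts, against 40.9 in control A and 1263 in control B, where CD68 made up 1217. PTPRC, the defining leukocyte gene, was not tested and was near 0 in every library. CDH5, also untested, had 4.43 and 7.55 in the knockouts, against 16.4 in control A and 0 in control B. Of 6 fibroblast markers, 3 were tested, COL1A1, COL3A1 and PDGFRB, and LUM was listed at 0. Summed over the 3 tested, counts were 1195 and 1065 in the knockouts, against 892 in control A and 1859.8 in control B. Within that sum PDGFRB had 439 and 451 in the knockouts, against 513 in control A and 6.71 in control B, whereas COL1A1 had 687 and 556 in the knockouts, against 354 in control A and 1574 in control B. Of 6 hepatocyte markers, 3 were at 0, and SERPINA1, the 1 tested, had 0 and 0 in the knockouts, against 0 in control A and 61.5 in control B. Of 5 adipocyte markers, 0 were abundant enough to be tested. Results are therefore given against each control separately, and the part of the marker differences in them was not tested. In bulk RNA, fewer cells of a kind and less RNA per cell cannot be told apart.

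SREBPs act through the promoters of many of these genes, so the promoters of 4 members are given first. The windows are RefSeq's on GRCh38.p14, from 250 bases before the start of transcription to 50 bases from it, written 5′ to 3′ on the strand of the gene. Capitals mark the sterol regulatory element TCACNCCAC and the NF-Y box CCAAT on either strand, so an NF-Y box on the other strand reads ATTGG. SREBF2 encodes the main SREBP of sterol genes, INSIG1 the brake on SCAP, MVD a mevalonate enzyme that was higher in both knockouts, and SC5D a sterol enzyme that was lower in both, shown at the first of its start sites; the 4 were chosen after their values were seen. The windows lie at chr22:41832855-41833154 on the plus strand for SREBF2, chr7:155297628-155297927 on the plus strand for INSIG1, chr16:88663042-88663341 on the minus strand for MVD, and chr11:121292521-121292820 on the plus strand for SC5D.
SREBF2: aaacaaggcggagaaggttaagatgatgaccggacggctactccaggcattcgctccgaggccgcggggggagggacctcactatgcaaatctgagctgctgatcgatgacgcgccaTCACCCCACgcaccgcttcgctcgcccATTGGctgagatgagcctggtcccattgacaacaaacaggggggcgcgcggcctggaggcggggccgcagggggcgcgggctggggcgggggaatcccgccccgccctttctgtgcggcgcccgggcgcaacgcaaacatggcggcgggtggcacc
INSIG1: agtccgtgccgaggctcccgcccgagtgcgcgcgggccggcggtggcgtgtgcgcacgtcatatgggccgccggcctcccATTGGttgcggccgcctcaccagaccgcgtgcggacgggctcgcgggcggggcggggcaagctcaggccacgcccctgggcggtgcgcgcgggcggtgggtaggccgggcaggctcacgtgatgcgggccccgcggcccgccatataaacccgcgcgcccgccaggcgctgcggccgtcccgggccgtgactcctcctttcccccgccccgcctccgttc
MVD: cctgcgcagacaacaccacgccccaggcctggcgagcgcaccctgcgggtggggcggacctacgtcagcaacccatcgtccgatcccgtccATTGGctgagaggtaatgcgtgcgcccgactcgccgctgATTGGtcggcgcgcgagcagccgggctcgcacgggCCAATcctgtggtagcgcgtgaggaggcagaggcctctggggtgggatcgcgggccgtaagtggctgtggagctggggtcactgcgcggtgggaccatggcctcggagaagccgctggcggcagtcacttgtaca
SC5D: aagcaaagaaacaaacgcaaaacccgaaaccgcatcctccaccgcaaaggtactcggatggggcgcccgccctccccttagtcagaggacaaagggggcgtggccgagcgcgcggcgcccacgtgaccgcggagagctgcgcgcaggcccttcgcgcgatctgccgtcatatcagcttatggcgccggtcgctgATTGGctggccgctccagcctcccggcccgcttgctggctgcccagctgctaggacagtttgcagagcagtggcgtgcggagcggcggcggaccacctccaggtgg
The SREBF2 window holds the sterol regulatory element 133 bases before the start site, followed by an NF-Y box at 106 bases. INSIG1 has an NF-Y box 170 bases before its start, MVD has 3 at 159, 120 and 85 bases, and SC5D has 1 at 56 bases.

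RefSeq held promoter windows for 24 of the 27 members, 30 windows in all because some genes have several starts. ACAT2, FDFT1 and SQLE had no entry. TCACNCCAC, searched on both strands, occurred in 1 of the 30 windows (3.33%), that of SREBF2, against 396 of 35116 windows of all genes (1.13%). CCAAT on either strand occurred in 19 of the 30 windows (63.3%), against 34.6% of all windows. MVK and NSDHL had the most, with 5 each. The GC box GGGCGG, which is bound by SP factors, occurred on either strand in 28 of the 30 windows (93.3%), against 45.0% of all windows. In the 4 printed windows no match overlapped one of another motif, while GC boxes overlapped each other in SREBF2 and INSIG1. These matches describe letters in a short window and were not tied to any factor.

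None of the 27 genes had an adjusted p under 0.05 in the authors' deposited table, where 93 of all 16629 tested genes (0.559%) had one. The lowest adjusted p of a member was 0.149, for SC5D (DESeq2 Wald test). Log2 fold changes of knockout over control were positive for 13 members and negative for 14, with a median of -0.01 against -0.02 for all genes. An unadjusted p under 0.05 was reached by 6 members, which is 22.2% of the members beside 12.6% of all tested genes. They were MVD with a positive fold change and SQLE, SC5D, DHCR7, NPC1 and ABCA1 with negative ones. The authors' own label column marks the same 6 members, MVD as upregulated and the others as downregulated. It marks the remaining members as not significant, and the share of all genes so labelled was not counted. The standard errors ran from 0.183 to 0.637 log2 units with a median of 0.355. The median was 0.517 for all genes and 0.399 for those with a base mean of at least 100, as all members had. For 11 members the 95% Wald interval lay wholly within a 2-fold change in either direction, and for the other 16 it did not.

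**Figure D1:**
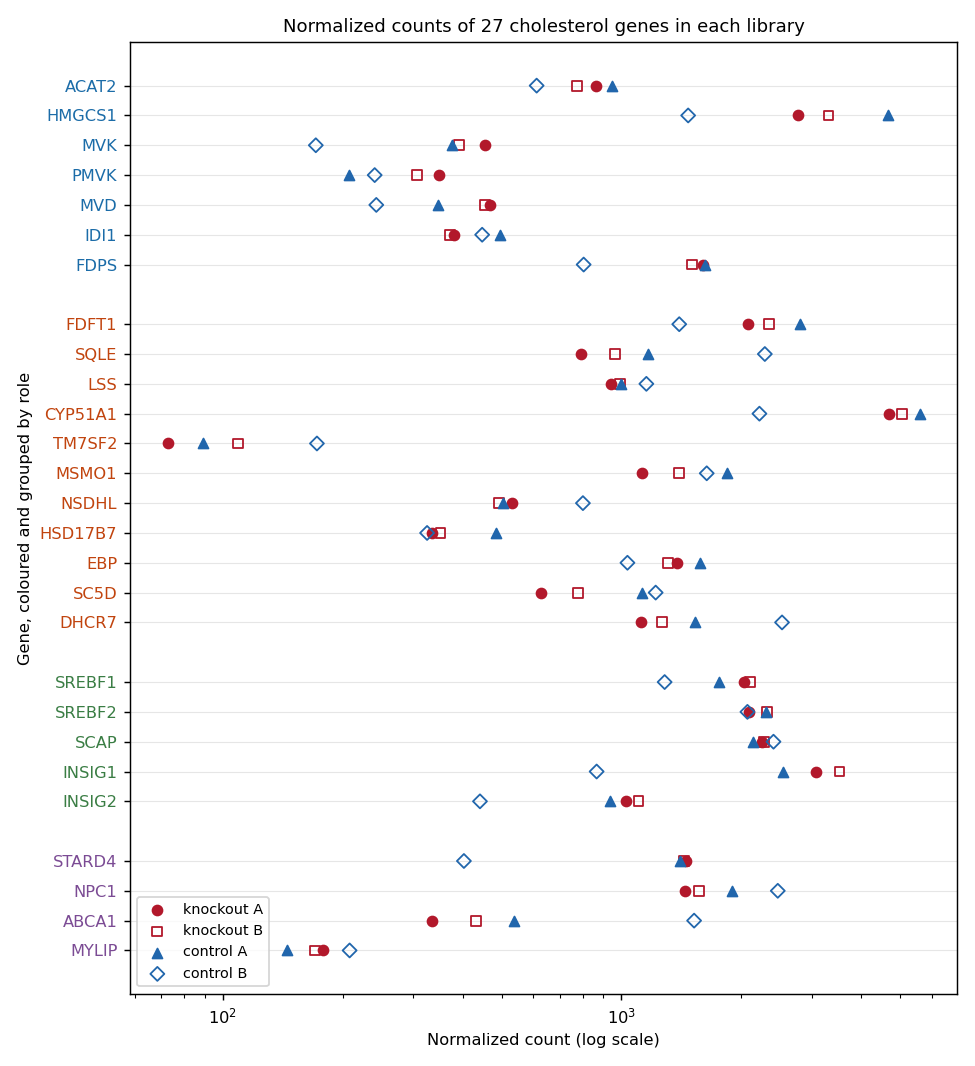
Normalized counts on a log axis for the 27 genes, down the page by role: mevalonate steps in blue labels, squalene and sterol steps in orange, SREBP control in green, uptake and transport in purple. Red circles and squares are the 2 CFL1 knockout libraries, blue triangles and open diamonds are control A and control B; the knockouts sit close together, and control B lies more than 2-fold from control A for 9 genes.

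Both knockouts lay above both controls for 7 members, which were MVK, PMVK, MVD, SREBF1, INSIG1, INSIG2 and STARD4. Both lay below both controls for 8, which were IDI1, SQLE, LSS, MSMO1, SC5D, DHCR7, NPC1 and ABCA1. These are 25.9% and 29.6% of the members, beside 23.9% above and 21.1% below among all genes. The other 12 members had overlapping groups.

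The 7 genes of the mevalonate steps had a median log2 fold change of 0.36, with 3 members higher in both knockouts, 1 lower and 3 overlapping. Among all genes, 23.9% were higher and 21.1% lower. The positive median came from control B: the median difference was -0.06 from control A and 0.93 from control B on the log2(normalized count + 1) scale. Against control A alone, both knockouts were above for 3 and below for 4. MVD (ENSG00000167508.11_3_MVD), the decarboxylase that forms isopentenyl diphosphate, had 468 and 455 normalized counts in the knockouts, against 346 and 243 in the controls. The groups did not overlap, and the knockouts were nearly alike. In the authors' deposited table MVD had a log2 fold change of 0.65 (SE 0.330, unadjusted p = 0.0494, adjusted p = 0.395). PMVK, the kinase that acts before MVD, had 349 and 306 normalized counts in the knockouts, against 207 and 240.3 in the controls, which again did not overlap. PMVK was the member whose excess over control A was the largest, 0.66 on the log2(normalized count + 1) scale, and its excess over control B was 0.44. The authors' deposited table gave PMVK a log2 fold change of 0.55 (SE 0.294, adjusted p = 0.418). MVK, mevalonate kinase, had 454 and 390.4 in the knockouts, against 375 in control A and 171 in control B. Knockout B and control A were thus close together, and control B was low. The 3 adjacent steps from mevalonate to isopentenyl diphosphate, MVK, PMVK and MVD, therefore all had higher normalized counts in both knockouts, and the adjusted p of each was over 0.05.

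The flanking mevalonate genes were lower in the knockouts than in control A. HMGCS1, which makes HMG-CoA and is a standard SREBP target, had 2780.3 and 3306 normalized counts in the knockouts, against 4674 in control A and 1469.8 in control B. Both knockouts lay between the controls, and the authors' deposited table gave HMGCS1 a log2 fold change of -0.01 with a wide standard error of 0.596. ACAT2, which joins acetyl-CoA units at the start of the pathway, had 862 and 772 in the knockouts, against 945 in control A and 612.5 in control B. As at HMGCS1, control A was highest and control B lowest. FDPS, farnesyl diphosphate synthase, had 1601 and 1502 in the knockouts, against 1617 in control A and 804 in control B. Here the knockouts were close to control A and about 1.93-fold above control B. IDI1, the isomerase that interconverts the isoprenoid diphosphates, was the only mevalonate gene lower than both controls, with 379 and 371 in the knockouts, against 494 and 447 in the controls. The authors' deposited table gave IDI1 a log2 fold change of -0.33 (SE 0.236, adjusted p = 0.555).

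The 11 genes from squalene to cholesterol had a median log2 fold change of -0.34. Both knockouts were below both controls for 5 of them, overlapped the controls for 6, and were above both for 0. Among all genes, 21.1% were below both and 23.9% above both. Against control A alone, both knockouts were below for 9 of the 11 (81.8%) and above for 0, beside 38.4% below and 40.8% above among all genes. Against control B alone, both knockouts were below for 7 and above for 4, beside 46.0% below and 47.2% above among all genes. SC5D (ENSG00000109929.9_2_SC5D), the desaturase that acts just before the final reductase, had 627 and 778 normalized counts in the knockouts, against 1129 and 1218 in the controls. The controls were close together at this gene, so the difference did not hinge on which control was used: it was -0.69 relative to control A and -0.80 relative to control B on the log2(normalized count + 1) scale. Its knockouts averaged 702 ± 107 and its controls 1174 ± 63.3 (SD, n = 2 each). In the authors' deposited table SC5D had a log2 fold change of -0.74 (SE 0.243, unadjusted p = 0.00227, adjusted p = 0.149). MSMO1, which removes methyl groups from sterols, had 1123 and 1397 in the knockouts, against 1841 and 1636 in the controls, another gene at which the controls were close and the groups did not overlap. The authors' deposited table gave MSMO1 a log2 fold change of -0.47 (SE 0.242, adjusted p = 0.407).

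DHCR7, the reductase that completes cholesterol, had 1117 and 1262 normalized counts in the knockouts, against 1529 in control A and 2528 in control B. SQLE, squalene epoxidase, one of the rate-limiting enzymes of the pathway, had 791 and 962 in the knockouts, against 1164 in control A and 2289 in control B. In both genes the knockouts were lowest and control B was highest by a wide margin. SQLE differed from control A by -0.42 and from control B by -1.39 on the log2(normalized count + 1) scale, and DHCR7 by -0.36 from control A and -1.09 from control B. The authors' deposited table listed log2 fold changes of -0.98 for SQLE (SE 0.435, adjusted p = 0.324) and -0.77 for DHCR7 (SE 0.355, adjusted p = 0.345). LSS, which closes the sterol ring to form lanosterol, was nearly level, with 944 and 989 in the knockouts, against 999.7 and 1155 in the controls. The 95% Wald interval of LSS, from the authors' deposited table, ran from -0.57 to 0.26 log2 units.

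Of the other sterol enzymes, 4 had both knockouts below control A and above control B. CYP51A1, the lanosterol demethylase and the member with the highest base mean, had 4696 and 5051 normalized counts in the knockouts, against 5605 in control A and 2219 in control B. FDFT1, squalene synthase, had 2078 and 2349 in the knockouts, against 2811 in control A and 1396 in control B. EBP, a sterol isomerase, had 1376 and 1310.2 in the knockouts, against 1573 and 1035 in the controls. CYP51A1, FDFT1 and EBP therefore showed the pattern of HMGCS1, between the 2 controls. HSD17B7, a sterol ketoreductase, had 335 and 352 in the knockouts, against 485 in control A and 325 in control B. It too lay between the controls, lower than control A by 0.50 and only 0.08 above control B on the log2(normalized count + 1) scale. NSDHL, a sterol dehydrogenase, had 532 and 494 in the knockouts, against 503 in control A and 800.3 in control B. TM7SF2, a sterol reductase with the lowest base mean of the 27, had 72.6 and 109 in the knockouts, against 89.1 in control A and 172 in control B. At both of these the knockouts straddled control A and lay below control B. For these 6 genes the log2 fold change lay between -0.52 (TM7SF2) and 0.32 (CYP51A1) in the authors' deposited table.

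**Figure D2:**
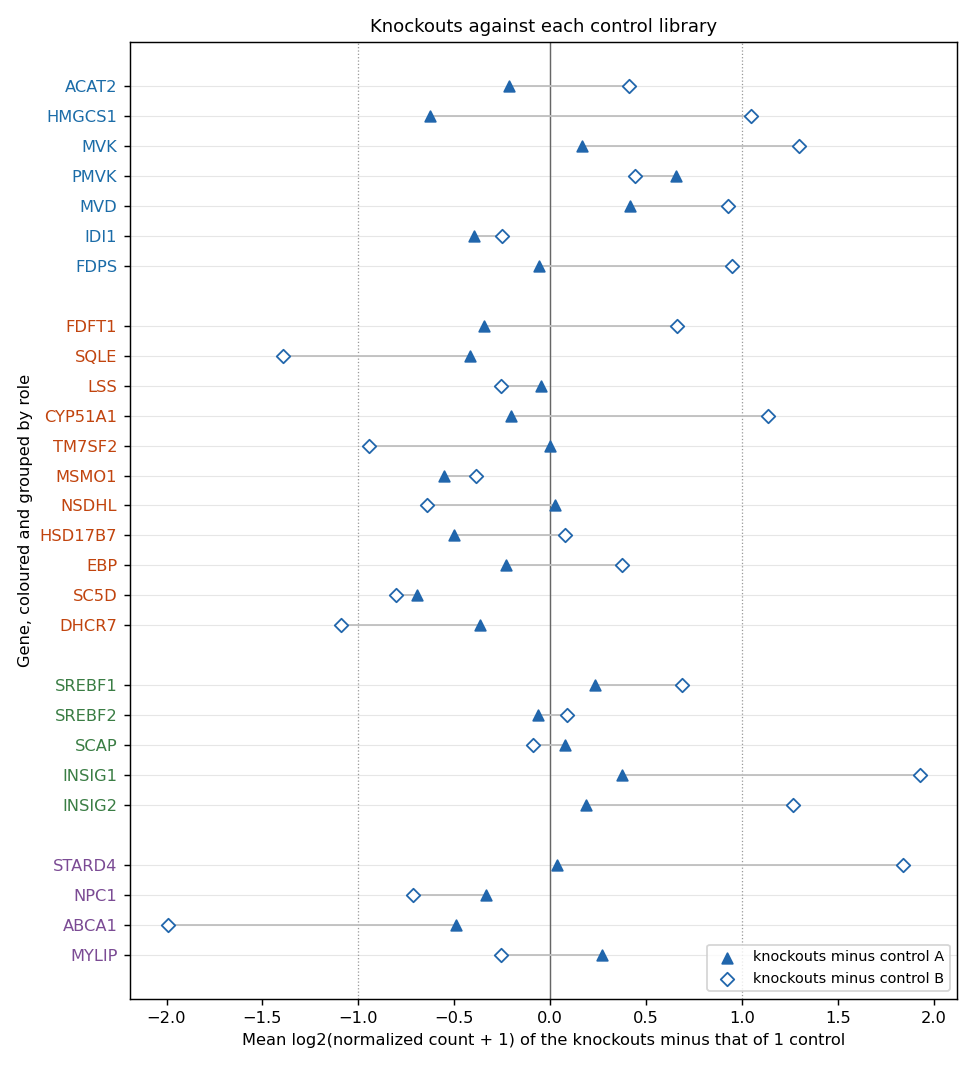
Difference between the mean of the 2 CFL1 knockouts and each control on the log2(normalized count + 1) scale, with filled triangles for control A, open diamonds for control B and a line joining the 2 values of a gene. Values against control A stay between -0.69 and 0.66, and those against control B run from -1.99 for ABCA1 to 1.93 for INSIG1; dotted lines mark a 2-fold change.

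The 5 SREBP control genes had a median log2 fold change of 0.44. Both knockouts were above both controls for 3 and below for 0, beside 23.9% above and 21.1% below among all genes. Their median difference was 0.19 from control A and 0.69 from control B on the log2(normalized count + 1) scale. The transcription factor SREBF2 (ENSG00000198911.11_2_SREBF2), whose promoter carries the sterol element shown above, had 2095 and 2313 normalized counts in the knockouts, against 2302 and 2070.0 in the controls. SCAP, the escort of the SREBPs, had 2252 and 2275 in the knockouts, against 2142 and 2406 in the controls. At both genes the 4 libraries interleaved, and these were the 2 most narrowly measured members: the 95% Wald intervals from the authors' deposited table were -0.37 to 0.39 log2 units for SREBF2 and -0.37 to 0.35 for SCAP. SREBF1, the SREBP better known for fatty acid genes, had 2032 and 2104 in the knockouts, against 1756 and 1283 in the controls. Its groups did not overlap, and the authors' deposited table gave it a log2 fold change of 0.44 (SE 0.268, adjusted p = 0.477).

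INSIG1 (ENSG00000186480.12_3_INSIG1), which retains SCAP in the endoplasmic reticulum and is itself switched on by SREBPs, had 3082 and 3523 normalized counts in the knockouts, against 2544 in control A and 866 in control B. The knockouts were the 2 highest libraries, and most of the distance came from control B: on the log2(normalized count + 1) scale the difference was 0.37 from control A and 1.93 from control B. INSIG1 had the largest positive log2 fold change of the 27 in the authors' deposited table, 0.95, but its standard error of 0.568 left an adjusted p of 0.471. INSIG2, its relative, had 1024 and 1103 in the knockouts, against 934 in control A and 441 in control B, with differences of 0.19 from control A and 1.27 from control B. Both INSIG genes thus stood in the same order, knockouts, control A and control B from high to low.

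The 4 genes of uptake and transport had a median log2 fold change of -0.27 and stood on different sides of the controls. Their median difference was -0.15 from control A and -0.48 from control B on the log2(normalized count + 1) scale. ABCA1 (ENSG00000165029.15_2_ABCA1), the exporter that loads cholesterol onto apolipoproteins, had 336 and 432 normalized counts in the knockouts, against 536 in control A and 1521 in control B. It was lowest in the knockouts and differed from control A by -0.49 and from control B by -1.99 on the log2(normalized count + 1) scale. The authors' deposited table gave ABCA1 a log2 fold change of -1.42, the largest in size among the 27 (SE 0.590, unadjusted p = 0.0160, adjusted p = 0.275). NPC1, which passes cholesterol out of lysosomes, had 1444 and 1567 in the knockouts, against 1897 and 2467 in the controls. Its groups did not overlap, and the authors' deposited table gave it a log2 fold change of -0.54 (SE 0.251, adjusted p = 0.353). STARD4, a cytosolic sterol carrier, had 1448 and 1432 in the knockouts, against 1405 in control A and 402 in control B. Knockouts and control A were thus almost equal, a difference of 0.04, while control B was 1.84 lower than the knockouts. MYLIP, a ubiquitin ligase that limits lipoprotein uptake and is switched on by LXR, had 178 and 170.4 in the knockouts, against 144.5 and 208 in the controls, and its libraries interleaved.

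**Figure D3:**
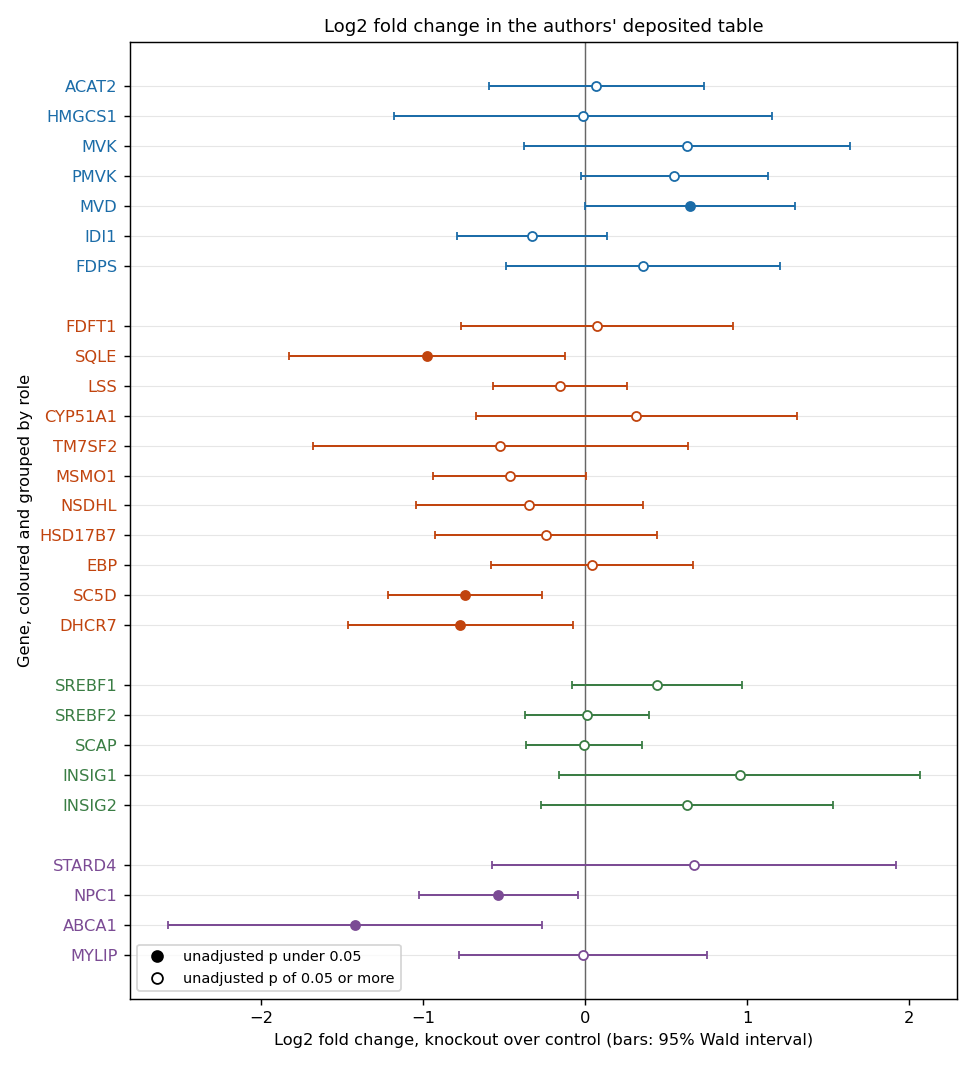
Log2 fold change of knockout over control in the authors' deposited table for each gene, with bars of the 95% Wald interval and filled points where the unadjusted p is under 0.05. Of the 6 filled points only MVD lies right of 0; SC5D at -0.74 has the lowest p, and the widest bars belong to STARD4, HMGCS1 and TM7SF2.

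The 2 controls differed from each other by more than the knockouts did. Their distance exceeded 2-fold for 9 of the 27 members (33.3%), against 44.4% of all genes and 38.6% of those with a base mean of at least 100. Of the 9, 8 were lower in control B (HMGCS1, MVK, FDPS, FDFT1, CYP51A1, INSIG1, INSIG2 and STARD4) and ABCA1 was higher. The widest gaps, control B minus control A on the log2(normalized count + 1) scale, were -1.80 at STARD4, -1.67 at HMGCS1, -1.55 at INSIG1 and 1.50 at ABCA1. The gap between the controls was wider than that between the knockouts for 25 of the 27 (92.6%; all genes, 86.7%). It also exceeded the difference between the knockouts and control A for 23 of the 27, a count not made over all genes. Over all genes the median absolute gap between the controls was 0.87, and the median absolute difference from control A was 0.24. The knockouts were nearer to control A than to control B for 22 members (81.5%; all genes, 82.9%). Their difference had the same sign against both controls for 16 (59.3%; all genes, 57.4%). Relative to control A, 0 members differed by more than 2-fold, against 5.07% of all genes and 1.48% of those with a base mean of at least 100. Relative to control B 9 did (33.3%), against 45.3% of all genes and 39.9% of those with a base mean of at least 100.

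A fit on the recovered reads gave the same absence of calls. With limma on log2(normalized count + 1) over 24805 genes, 0 members and 0 genes had an adjusted p under 0.05 (0.0% of all genes). An unadjusted p under 0.05 was reached by 494 genes (1.99%), among them 1 member, SC5D, whose adjusted p from limma was 0.722. Voom gave 0 calls with 431 genes at an unadjusted p under 0.05. The count depended on control A. Without it, 11 of the 27 (40.7%) were called by limma, beside 8293 of all genes (33.4%): MVK, MVD, FDPS, CYP51A1, SREBF1, INSIG1, INSIG2 and STARD4 higher in the knockouts, and DHCR7, NPC1 and ABCA1 lower. That fit rests on control B alone as the control and assumes that it varies as the knockouts do. Without control B, a fit that rests on control A alone, 0 members were called, and 4 had an unadjusted p under 0.05, beside 12.9% of all genes. PMVK and MVD were higher, IDI1 and HSD17B7 lower, and the lowest adjusted p of a member was 0.358 (limma).

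Levels were also set beside each other per kilobase of the longest protein-coding transcript in GENCODE 29. CYP51A1 was highest in both groups, at a mean of 1518 normalized counts per kilobase in the knockouts and 1219 in the controls. INSIG1 was next in the knockouts at 1097, against 566 in the controls, where HMGCS1, FDPS, FDFT1, MSMO1, DHCR7, EBP and SQLE were above it. The control means average 2 unlike libraries: INSIG1 had 2544 normalized counts in control A and 866 in control B. Its place among the controls therefore depends on the control used, and ranks in single controls are not given. FDPS stood at 1049.8 in the knockouts and 819 in the controls, HMGCS1 at 868 in the knockouts and 876 in the controls, and FDFT1 at 832 in the knockouts and 791 in the controls. ABCA1 was lowest in the knockouts, at 36.6 in the knockouts against 98.0 in the controls. TM7SF2 stood at 52.7 in the knockouts and 75.8 in the controls, and MYLIP at 62.3 in the knockouts and 63.0 in the controls.

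Some members share sequence or strand with other entries, which limits what their counts can show. FDPS has 8 pseudogene entries, of which 5 had reads amounting to 3.66% of the FDPS base mean in the authors' deposited table. HSD17B7P2 amounted to 6.64% of HSD17B7, and 2 pseudogenes of CYP51A1 to 0.256%. STARD4-AS1, the antisense gene of STARD4, had 237 and 233 normalized counts in the knockouts, against 217 in control A and 5.59 in control B, the same order as STARD4 itself. The sources used here do not say whether counting used strand, so reads of these partners cannot be told apart.

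Neighbouring lipid pathways were read from 5 further lists. Of their 59 tested genes, 0 had an adjusted p under 0.05 by DESeq2 in the authors' deposited table. An unadjusted p under 0.05 was reached by 11 of the 59, beside 12.6% of all tested genes. Of 11 genes that process SREBPs or degrade sterol enzymes, 10 had reads. Both knockouts were above both controls for 2 and below for 3 of the 10, beside 23.9% and 21.1% of all genes. The median log2 fold change was -0.62. MBTPS1, the protease that makes the first cut in SREBPs, had 3604 and 3673 normalized counts in the knockouts, against 2936 and 2271 in the controls. VCP, which extracts proteins from the membrane for degradation, had a log2 fold change of -1.36 (adjusted p = 0.337) in the authors' deposited table. The negative median of this list came mainly from control B: its median difference was -0.08 from control A and -0.79 from control B.

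For 13 tested fatty acid genes of SREBP the median log2 fold change was 0.05. Among the 11 with reads, 2 were above and 4 below both controls, beside 23.9% and 21.1% of all genes. Their median difference was -0.18 from control A and 0.45 from control B on the log2(normalized count + 1) scale. ELOVL5 and ELOVL6, which lengthen fatty acids, were both below both controls: ELOVL5 had 2331 and 2815 normalized counts in the knockouts, against 3365 and 4681 in the controls, and ELOVL6 had 296 and 292 in the knockouts, against 379 and 709 in the controls. ACLY, which supplies acetyl-CoA, had 7704 and 8737 in the knockouts, against 9266 and 6024 in the controls. SCD and FASN, the most abundant of the list, stood at 0.04 and -0.33 in the log2 fold change column of the authors' deposited table (adjusted p = 0.917 and 0.526).

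The 6 tested LXR and oxysterol genes, which sense and respond to excess sterol, had a median log2 fold change of 0.55. Of them, 3 were above and 2 below both controls, beside 23.9% and 21.1% of all genes. The median came mostly from control B: the median difference was 0.18 from control A and 1.43 from control B on the log2(normalized count + 1) scale. NR1H2, the widely expressed LXR, had 682 and 683 normalized counts in the knockouts, against 454 and 529.8 in the controls. ABCG1, an exporter related in function to ABCA1, stood on the other side from it, with 298 and 346 in the knockouts, against 233 in control A and 17.9 in control B. LPCAT3, a phospholipid enzyme, had 361 and 401 in the knockouts, against 406 and 536 in the controls. ABCA1 and ABCG1, both known LXR targets, thus stood on opposite sides of both controls.

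Of 16 storage and trafficking genes, 15 had reads. Both knockouts were above both controls for 6 and below for 3 of the 15, beside 23.9% and 21.1% of all genes. The median log2 fold change was 0.20, and the median difference was -0.0003 from control A and 0.30 from control B. CAV1, caveolin of cholesterol-rich membrane pits, had the lowest adjusted p of the 5 lists, 0.0632, with a log2 fold change of -1.44 in the authors' deposited table. It had 1176 and 1452 normalized counts in the knockouts, against 2481 and 4646 in the controls, so the groups were well separated. NCEH1, which hydrolyses cholesterol esters, had 571 and 769 in the knockouts, against 1271 in control A and 13782 in control B. SOAT1, which forms cholesterol esters, had 5626 and 6114 in the knockouts, against 5351 and 2522 in the controls, and LRP1, a lipoprotein receptor, had a log2 fold change of 0.90 (adjusted p = 0.635) in the authors' deposited table.

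The prenyl branch uses the isoprenoid diphosphates made by IDI1 and FDPS. Of its 13 genes, 0 had both knockouts above and 3 below both controls, beside 23.9% and 21.1% of all genes. The median log2 fold change was -0.09, and the median difference was 0.02 from control A and -0.28 from control B. DHDDS, which builds dolichol, had 440.1 and 492 normalized counts in the knockouts, against 533 and 1413 in the controls, and FNTB, a subunit of farnesyltransferase, had 194 and 218 in the knockouts, against 242 and 499.6 in the controls (log2 fold changes in the authors' deposited table -1.06 and -0.85, adjusted p = 0.409 and 0.469). ICMT, RABGGTB and FNTA, the most abundant genes of the list, stood at -0.0032, 0.29 and 0.08 in the log2 fold change column of the authors' deposited table.

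**Figure D4:**
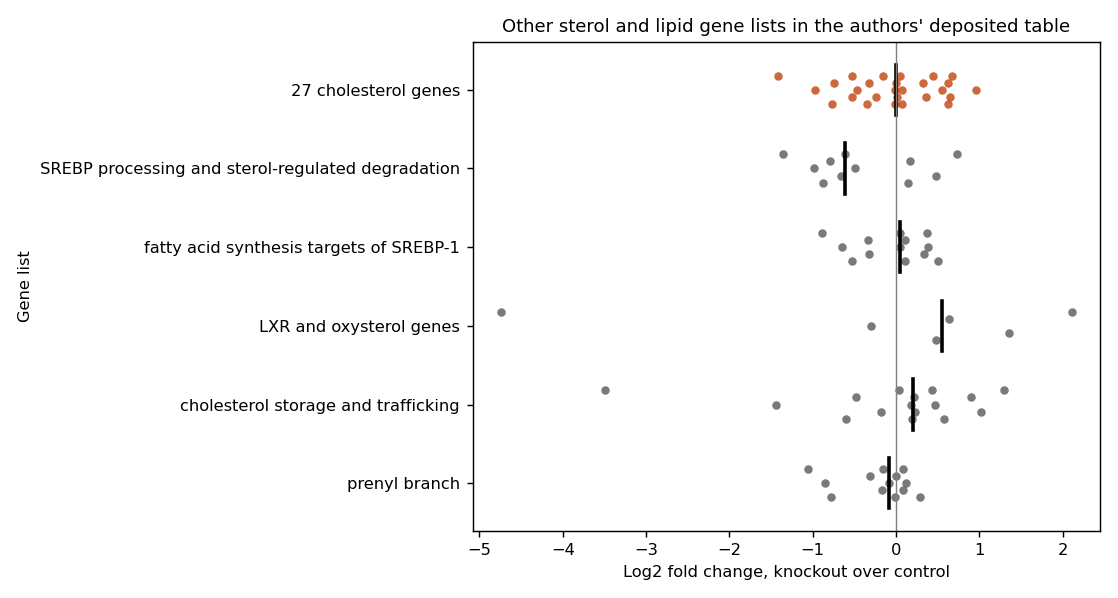
Log2 fold change of knockout over control in the authors' deposited table for each tested gene of the 27 cholesterol genes and of 5 neighbouring lists, with a black bar at the median of each list. Medians run from -0.62 for SREBP processing to 0.55 for LXR and oxysterol genes, and no gene shown had an adjusted p under 0.05. Against control A alone, the median differences of these 2 lists were -0.08 and 0.18 on the log2(normalized count + 1) scale.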

How the data were processed

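Total RNA of RNA integrity number at least 7, extracted with Trizol, was sequenced on an Illumina NovaSeq instrument, per the labels' protocols. The tools FastQC, cutadapt, STAR and RSEM and the genome build hg19 are listed in the submitters' processing notes, which give no versions. The only file is the authors' deposited DESeq2 result table of CFL1 knockout over control. The authors deposited the base mean as a signal, an average of size-factor-scaled counts over the 4 libraries. Fold changes and standard errors are deposited by the authors on the log2 scale, and the Wald score is their ratio in the authors' deposited table. The p-value columns deposited by the authors hold the unadjusted and the Benjamini-Hochberg adjusted p.

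Whole reads per library were recovered from base means printed to 15 digits, within a range of group means set by the authors' fold change, and kept where a single set of whole reads remained. Where both group means reached 5, the fold change those reads imply also had to be less than 0.0001 log2 units from the authors' value. Whole reads came out for 99.9% of genes below a base mean of 10000, and 169 genes at or above it have none. Genes with 1 read in all showed, by the sign of their fold change, whether that library was a knockout or a control. RSEM estimates counts, so recovered reads are rounded estimates. They summed to 14623639 and 12337387 in the knockouts and to 14295712 and 14289690 in the controls, with size factors of 1.13 and 0.927 in the knockouts and 1.10 and 0.895 in the controls.

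The main calls here are the authors' adjusted p under 0.05, and their label of upregulated or downregulated genes was not used for them. Recovery and limma were tested on simulated data. Limma 3.58.1 (R 4.3.3) with a trended prior was fitted to genes whose mean reached 1, on log2(normalized count + 1), a scale that understates changes of low genes. Other settings were voom, TMM scaling, a pseudocount of 0.1, means reaching 10, other filters and thresholds on the deposited p, and leaving out each library. Python 3.11.15, numpy 2.4.6, pandas 2.3.3, numba 0.67.0 and matplotlib 3.10.9 were used. Named genes are CFL1, all 27 members and, of each neighbouring list, the 3 with the highest base mean and the 2 with the largest fold change at a base mean of at least 100. The values of 3 genes that this rule names are not reported here. The members, lists and tests were chosen with earlier results of these data known. Promoters belong to another build than the files and were used for sequence only, with coordinates of their own build.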

Additional observations from a re-analysis of the deposited data

How the results depend on the processing

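No paired analysis was possible because the recovered libraries cannot be tied to the replicate numbers of the labels. The count of members called stayed at 0 with no filter on the base mean, with base means of at least 10 or 100 and with an adjusted p under 0.01, where the genes called numbered 78, 91, 77 and 62 against 93 in the authors' deposited table. With an unadjusted p under 0.05 these became 6 members and 2099 genes. By limma, 0 genes and 0 members were called with voom, TMM scaling, a pseudocount of 0.1 or means reaching 10. Leaving out each library in turn gave 0 to 8293 genes and 0 to 11 members, the upper values without control A. Members with groups that did not overlap numbered 15, and 24 without control B or 27 without control A, since 1 control leaves less room for overlap. Among all genes, both knockouts were above both controls for 23.9% and below both for 21.1%. They were above control A for 40.8% of all genes and below it for 38.4%. For control B these shares were 47.2% and 46.0%. The sign of the limma difference was kept by all 27 members under the pseudocount, the filter and voom, and by 26 under TMM scaling, where SCAP turned to 0.014. Leaving out libraries turned the sign of 11 members and kept that of 16. The ranges of the 11 were -0.21 to 0.41 for ACAT2, -0.20 to 1.13 for CYP51A1, -0.23 to 0.38 for EBP, -0.35 to 0.66 for FDFT1, -0.060 to 0.95 for FDPS, -0.62 to 1.04 for HMGCS1, -0.50 to 0.077 for HSD17B7, -0.25 to 0.27 for MYLIP, -0.64 to 0.026 for NSDHL, -0.088 to 0.079 for SCAP and -0.065 to 0.089 for SREBF2. The cause was not tested. The lowest base mean of a member was 111, and the controls lay farther apart than the knockouts for 25 of the 27; how far depth limits the calls was not tested. No label says what sets control B apart.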
